A study of Mus musculus with 11 samples.

Results

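Genes of the IL-18 axis, the inflammatory caspases and gasdermin D were followed in beta cells sorted by their surface level of PD-L1. The members were given by symbol and were found by their Ensembl identifiers in the gene tables of RSEM, a program that assigns reads to genes and transcripts. They are Il18bp, Il18, Casp1, Casp4, Casp12, Gsdmd and Pycard, 7 of the 55487 genes in the tables, and each symbol matched 1 identifier. Of these, 5 had enough reads to be tested, Casp4 fell under the filter on low counts and Casp12 had no read in any library.

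IL-18 is a cytokine of the IL-1 family that is made as an inactive precursor. Sensors such as NLRP3 and AIM2 gather the adaptor ASC, encoded by Pycard, into an inflammasome that activates caspase-1, and caspase-1 cuts the IL-18 and IL-1β precursors and the pore-forming protein gasdermin D. Mouse Casp4 encodes caspase-11, which responds to bacterial lipopolysaccharide in the cytosol and also cuts gasdermin D, while the IL-18-binding protein encoded by Il18bp is a secreted decoy that keeps mature IL-18 from its receptor. Macrophages, which islets also hold, are rich in the proteins of this pathway.

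PD-L1high and PD-L1low beta cells came from islets kept in culture with IFNγ at 50 pg/mL over 20 h, and control beta cells from islets cultured without it. All islets were from C57BL/6 mice, described in the methods as 12 weeks old, male and of the C57BL/6JRj strain. No transgene or deletion is named for any group in the sources used here. Islets were treated whole, dispersed and stained afterwards, and beta cells were gated by EpCam (positive), CD24 (low) and CD71 (positive), with CD45, TER119 and CD31 used to remove blood and endothelial cells, before the PD-L1 gates were applied. There were 4 libraries of PD-L1high cells (replicates 1 to 4), 3 of PD-L1low cells (replicates 2 to 4) and 4 of control cells (replicates 1 to 4). PD-L1high and PD-L1low cells were parts of the same treated islets, and the gate was set on the product of Cd274, so a difference between them compares cells chosen for their response, not a treatment with its absence. The methods call each replicate an independent biological sample, and p values measure the spread between these libraries. In libraries of bulk RNA, fewer cells that carry a transcript and less of it per cell cannot be told apart.

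Library totals were 10422018 to 14742192 expected counts in PD-L1high cells, 11826335 to 14725088 in PD-L1low cells and 10965887 to 15810769 in control cells, where an expected count is RSEM's estimate of the reads of a gene. The labelled cell type was borne out by its markers: 8 of 8 beta cell markers, insulin genes among them, were tested, with a summed level of 62129 to 90412 CPM in PD-L1high, 71934 to 77314 in PD-L1low and 60910 to 93673 in control libraries. CPM are counts per 1000000 of a library total scaled by edgeR's TMM factors. Cd274, which encodes PD-L1, averaged 218 ± 44.8 CPM in PD-L1high (SD, n = 4), 38.1 ± 8.35 in PD-L1low (SD, n = 3) and 20.4 ± 4.08 CPM in control cells (SD, n = 4), in the order of the gates. The other known IFNγ-induced genes that served as comparators moved in the same way: all 7 comparators, with Cd274 among them, passed the test in PD-L1high versus control and in PD-L1high versus PD-L1low, all higher, and 4 of 7 in PD-L1low versus control. Their median log2 fold changes were 3.42, 2.26 and 1.56 in these comparisons. Of all 16252 tested genes, 0.991%, 0.732% and 0.08% passed, in the same order. The sort itself selected on the product of Cd274, and the comparators were chosen with earlier results of these data known. Irf1, a transcription factor of the response, averaged 121 ± 19.2 CPM in PD-L1high (SD, n = 4), 51.0 ± 5.34 in PD-L1low (SD, n = 3) and 34.9 ± 7.03 CPM in control cells (SD, n = 4), and Gbp2, which encodes a guanylate-binding protein, averaged 252 ± 81.6, 12.7 ± 6.62 and 3.49 ± 2.42 CPM in the same groups. 

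The 3 inflammatory caspase genes lie next to each other on the + strand of chromosome 9 in GRCm38, within 74516 bases. Casp1 covers 5298517 to 5307265, Casp4 5308828 to 5336783 and Casp12 5345430 to 5373032. Il18 is on the same chromosome at 50554827 to 50581840 (+ strand). Il18bp is on chromosome 7 at 102014885 to 102018690 and Pycard on chromosome 7 at 127989708 to 127993867, both on the − strand, and Gsdmd is on chromosome 15 at 75862327 to 75867408 (+ strand). Promoters from RefSeq (GRCm38.p6), taken as 250 bases before to 50 after each start, were at hand for 6 of the 7 members, with 7 starts in all, and were searched on both strands for GAS (TTCNNNGAA, which reads the same on either strand) and for a core of the ISRE (GAAANNGAA), elements known from the promoters of interferon-induced genes. Of 32851 promoters, 8.3% held a GAS and 8.56% an ISRE core. Among the members, Casp12 alone held a match, with 2 GAS matches that do not overlap each other, whereas 6 of the 7 comparators held at least 1 match. The neighbours Casp1 and Casp12 are shown because the first had reads in every library and the second in none. Bases before the first annotated exon are printed in the direction of the gene, chr9:5298267-5298516 for Casp1 and chr9:5345226-5345429 for Casp12 (both + strand), with the GAS match in capitals.
Casp1: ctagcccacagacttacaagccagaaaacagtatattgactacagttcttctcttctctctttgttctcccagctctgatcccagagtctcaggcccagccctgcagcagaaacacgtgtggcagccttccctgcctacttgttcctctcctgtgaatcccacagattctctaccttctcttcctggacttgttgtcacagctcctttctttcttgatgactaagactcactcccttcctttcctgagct
Casp12: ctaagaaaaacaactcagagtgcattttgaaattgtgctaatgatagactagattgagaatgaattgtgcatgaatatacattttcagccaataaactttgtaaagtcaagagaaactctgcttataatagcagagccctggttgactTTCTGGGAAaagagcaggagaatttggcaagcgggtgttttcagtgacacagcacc
The match printed for Casp12 lies at positions -102 to -94 relative to the start, and its other match, at -36 to -28, falls within an annotated exon and is not printed. No GAS or ISRE core letters were found in the window of Il18bp. All 250 bases of that window before the RefSeq start lie in annotated exons, as the annotated span of Il18bp begins further upstream, so it does not cover the bases before that outer start.

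Il18bp, the IL-18 antagonist, was the one member that passed the test, and it was 7.40-fold higher in PD-L1high cells than in control cells. Its level was 175, 156, 183 and 165 CPM in the 4 PD-L1high libraries, 38.4, 35.5 and 28.7 CPM in the 3 PD-L1low libraries and 34.5, 16.5, 21.9 and 21.4 CPM in the 4 control libraries. The lowest PD-L1high library was far above every other library, while PD-L1low and control libraries overlapped because control replicate 1 reached 34.5 CPM. The log2 fold change was 2.89 ± 0.16 (SE; 95% interval 2.55 to 3.22) in PD-L1high versus control, with an adjusted p of 2.47e-08 in edgeR's quasi-likelihood test with Benjamini-Hochberg adjustment. In PD-L1high versus PD-L1low it was 2.21 ± 0.17 (SE; 95% interval 1.84 to 2.58), which is 4.63-fold, with an adjusted p of 3.1e-06 in the same edgeR test. The PD-L1high library exceeded the control library of the same replicate number in 4 of 4 and the PD-L1low library of the same number in 3 of 3. These counts follow from the lack of overlap and add no support of their own. Its exons share 80 of 3026 bases with Numa1 on the opposite strand, and Numa1 averaged 211 CPM in PD-L1high, 227 in PD-L1low and 220 CPM in control cells.

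In PD-L1low versus control, Il18bp had a log2 fold change of 0.68 ± 0.17 (SE; 95% interval 0.31 to 1.04), higher in 3 of 3 replicate numbers, and an adjusted p of 0.541 in edgeR's quasi-likelihood test. This comparison shares its control libraries with PD-L1high versus control. The replicate numbers marked no clear pairing of libraries. The unadjusted p was 0.0013. Without control replicate 1 the log2 fold change was 0.78 with an adjusted p of 0.0391 in edgeR. Without all libraries of replicate 1 it was 0.78 with an adjusted p of 0.0401 in edgeR. Leaving out PD-L1high replicate 1, a library of neither group, gave an adjusted p of 0.0512 in edgeR. Without the filter on low counts, with all libraries kept, edgeR's adjusted p was 0.00286, but that fit called 91 genes, beside 13 in the main fit. The adjusted p was 0.074 in DESeq2 with the replicate term and 0.412 in limma-voom. Under 19 of 22 alternatives Il18bp was not called in PD-L1low versus control, as in the main fit.

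**Figure D1:**
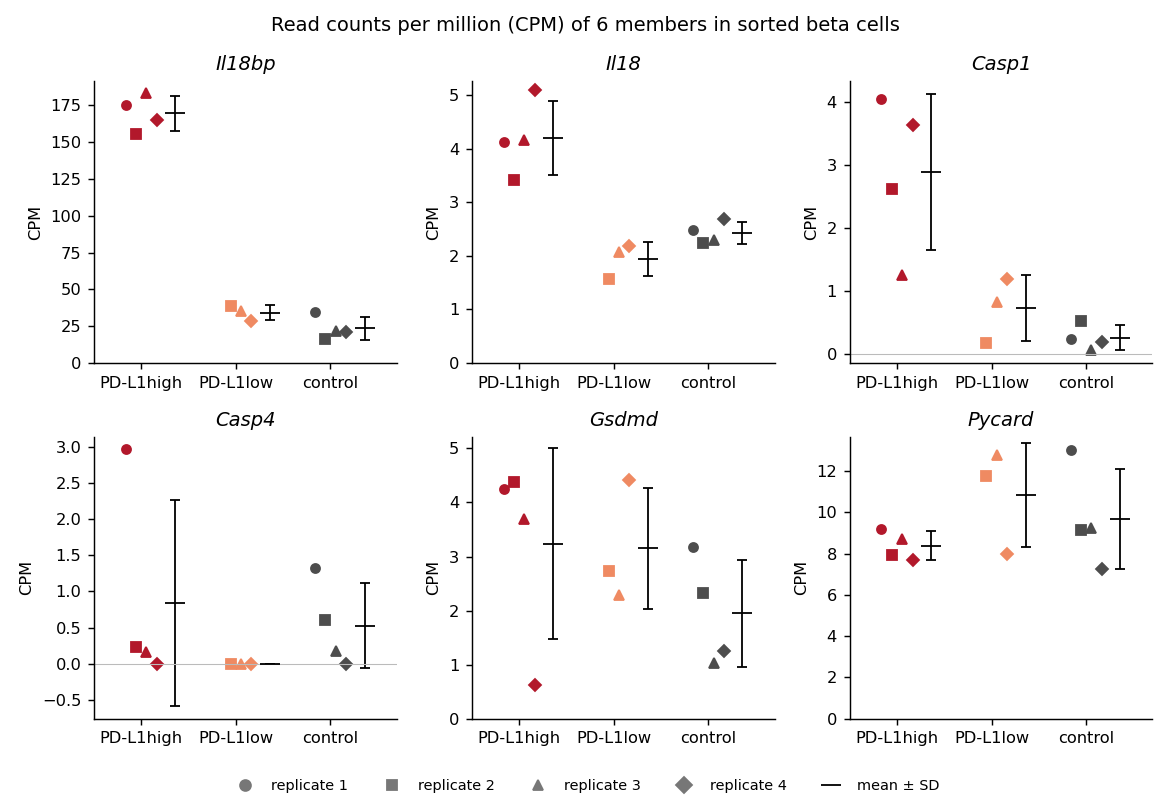
Level in CPM (vertical axis, 1 panel for each gene with its own scale) of 6 members in every library of PD-L1high, PD-L1low and control beta cells, with the replicate number as the symbol and the mean ± SD as a bar beside the points. The 4 PD-L1high libraries of Il18bp lie between 156 and 183 CPM, above all others, whereas Casp4 reads come mostly from replicate 1.

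Il18 itself, the cytokine that IL-18-binding protein holds, was found at low levels. PD-L1high libraries had 4.12, 3.42, 4.17 and 5.09 CPM, PD-L1low libraries 1.57, 2.07 and 2.18 CPM and control libraries 2.48, 2.25, 2.29 and 2.69 CPM. The 3 groups did not overlap: every PD-L1high library was above every control library, and every PD-L1low library was below every control library. No difference passed the test. The log2 fold change was 0.78 ± 0.37 (SE; 95% interval -0.01 to 1.57, adjusted p = 0.651) in PD-L1high versus control and 1.10 ± 0.42 (SE; 95% interval 0.20 to 2.01, adjusted p = 0.488) in PD-L1high versus PD-L1low, and -0.33 ± 0.42 (SE; 95% interval -1.23 to 0.57, adjusted p = 1.00) in PD-L1low versus control, all in edgeR's quasi-likelihood test. These values rest on 19 to 64 reads a library.

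The antagonist had the larger fitted change of the pair, and the ratio of their levels per transcript length was examined after these values had been seen. TPM, transcripts per 1000000 as RSEM gives them, correct for length and allow genes to be compared. Il18 had 9.02, 7.34, 6.23 and 7.34 TPM in PD-L1high libraries, 3.34, 4.01 and 3.60 TPM in PD-L1low libraries and 2.83, 3.73, 4.61 and 4.68 TPM in control libraries, so on this scale its PD-L1low and control libraries overlapped. Il18bp had 16.3, 16.8, 20.1 and 15.2 times the TPM of Il18 in PD-L1high libraries, 7.79, 6.56 and 4.34 times in PD-L1low libraries and 5.64, 2.92, 2.81 and 3.26 times in control libraries. PD-L1high libraries were above all others, and PD-L1low and control libraries overlapped. The mean ratio was 17.1 ± 2.13 in PD-L1high (SD, n = 4) and 3.66 ± 1.34 in control cells (SD, n = 4), with a p of 0.0286 in a two-sided exact permutation test, the smallest that 4 against 4 libraries allow. Against the mean of 6.23 ± 1.75 in PD-L1low cells (SD, n = 3) the exact permutation p was 0.0571, again the smallest possible, and PD-L1low versus control gave an exact permutation p of 0.114. Adjusted over these 3 comparisons by Benjamini-Hochberg, the exact permutation p values were 0.0857, 0.0857 and 0.114.

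**Figure D2:**
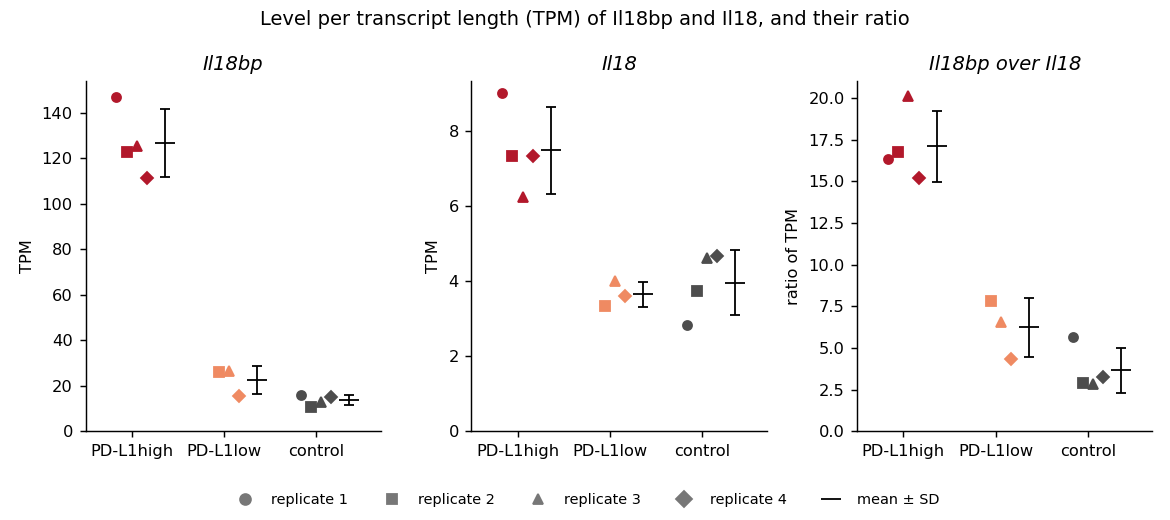
TPM of Il18bp and of Il18 and the ratio of the first to the second (vertical axes) in each library of PD-L1high, PD-L1low and control beta cells, with the mean ± SD beside the points. The ratio was 15.2 to 20.1 in PD-L1high libraries and no higher than 7.79 in any other library.

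Casp1, the protease that matures IL-18, was scarce in every group and highest in PD-L1high cells. Its CPM were 4.06, 2.62, 1.26 and 3.63 in PD-L1high libraries, 0.166, 0.813 and 1.19 in PD-L1low libraries and 0.233, 0.525, 0.0604 and 0.179 in control libraries. These stand for 147 reads in PD-L1high, 30 in PD-L1low and 13 in control cells. Every PD-L1high library was above every PD-L1low and every control library, while PD-L1low and control libraries overlapped. The log2 fold change in PD-L1high versus control was 3.44 ± 0.81 (SE; 95% interval 1.71 to 5.16) with an unadjusted p of 0.000726, and the adjusted p of 0.0698 in edgeR's quasi-likelihood test missed the threshold of 0.05. In PD-L1high versus PD-L1low it was 1.73 ± 0.86 (SE; 95% interval -0.10 to 3.56, adjusted p = 0.613), and in PD-L1low versus control 1.71 ± 0.92 (SE; 95% interval -0.26 to 3.68, adjusted p = 1.00), both in edgeR. Without PD-L1low replicate 2 these values were 0.95 and 2.65, without PD-L1low replicate 3 they were 2.52 and 0.97, and without control replicate 2 the log2 fold change in PD-L1low versus control was 2.59. Casp1 entered the test through its PD-L1high libraries, as its control levels were near the limit of detection: 3 counts, the floor used here, correspond to 0.19 to 0.274 counts per 1000000 of the control library totals, and 3 of 4 control libraries had no more than 3 reads.

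The call of Casp1 in PD-L1high versus control depended on the tool and on single libraries. The adjusted p was 0.00117 in DESeq2 with the replicate term, 0.0123 in limma-voom, 0.00111 in edgeR without the filter on low counts and 0.0267 in an edgeR fit of only the groups compared. Leaving out PD-L1low replicate 2 gave 0.0172 and leaving out control replicate 2 gave 0.0264, whereas leaving out PD-L1high replicate 1 gave 0.444 in edgeR. Over all alternatives the log2 fold change stayed between 3.16 and 4.41, and it was 4.41 without control replicate 2.

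Casp4 and Casp12, the neighbours of Casp1, gave almost no reads. Casp4 had 46, 3, 2 and 0 reads in PD-L1high libraries, 0 in each of the 3 PD-L1low libraries and 17, 8, 3 and 0 in control libraries. Of its 79 reads, 63 came from replicate 1, whose PD-L1high and control libraries were both the highest of their groups. In PD-L1high replicate 1 this was 3.12 reads per 1000000 of the library total (exact Clopper-Pearson 95% interval 2.28 to 4.16), and in control replicate 1 it was 1.30 (0.756 to 2.08). The sum of 0 of 39866503 counts in PD-L1low cells allows up to 0.0753 counts per 1000000 over the group. Casp4 was not tested, and replicate 1, which held most of its reads, has no PD-L1low library. Replicates 2 to 4 had 3, 2 and 0 reads in PD-L1high, 0 in each PD-L1low library and 8, 3 and 0 in control cells. With 16 reads over these 9 libraries, whether PD-L1low cells differ was not tested. Casp12 had 0 of 144084969 counts in all libraries together, which allows up to 0.0208 counts per 1000000. These intervals and floors cover counting error only. RSEM divides reads that match several genes, and how far it did so among these caspases was not tested.

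Gsdmd, the pore former, varied widely within groups. Its CPM were 4.25, 4.37, 3.70 and 0.623 in PD-L1high libraries, 2.73, 2.29 and 4.42 in PD-L1low libraries and 3.18, 2.32, 1.03 and 1.25 in control libraries. All groups overlapped, and the lowest value of all was that of PD-L1high replicate 4, with 6 reads. The log2 fold change was 0.77 ± 0.54 (SE; 95% interval -0.39 to 1.92, adjusted p = 0.779) in PD-L1high versus control, -0.33 ± 0.61 (SE; 95% interval -1.64 to 0.97, adjusted p = 0.922) in PD-L1high versus PD-L1low and 1.10 ± 0.61 (SE; 95% interval -0.20 to 2.40, adjusted p = 1.00) in PD-L1low versus control, in edgeR's quasi-likelihood test. Without PD-L1high replicate 4 the difference from PD-L1low cells was 0.29, and without PD-L1low replicate 4 it was 0.38, so its sign was not settled. Without PD-L1low replicate 4 the log2 fold change in PD-L1low versus control was 0.25.

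Pycard, the gene of the adaptor ASC, did not pass the test on its reads. It had 9.21, 7.95, 8.73 and 7.68 CPM in PD-L1high libraries, 11.8, 12.8 and 8.004 CPM in PD-L1low libraries and 13.0, 9.15, 9.24 and 7.26 CPM in control libraries, with overlap between all groups. The log2 fold change was -0.18 ± 0.21 (SE; 95% interval -0.62 to 0.26, adjusted p = 0.878) in PD-L1high versus control, -0.45 ± 0.23 (SE; 95% interval -0.94 to 0.04, adjusted p = 0.622) in PD-L1high versus PD-L1low and 0.27 ± 0.23 (SE; 95% interval -0.22 to 0.77, adjusted p = 1.00) in PD-L1low versus control, in edgeR's quasi-likelihood test.

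The level of Pycard per length gave another picture. TPM were 4.32, 4.52, 6.49 and 8.57 in PD-L1high libraries, 5.09, 8.44 and 3.27 in PD-L1low libraries and 3.63, 2.48, 2.67 and 2.77 in control libraries, so that PD-L1high libraries lay above all control libraries on this scale and not on that of reads. The gene has an annotated transcript of 3800 bases and 1 of 493 bases in GENCODE M21, whereas the authors quantified on M23, and the calculation below assumes the same pair of transcripts there. In 2 control libraries the listed length was 3800 bases. The length that RSEM lists for a gene is the mean over its transcripts weighted by their estimated shares. From that length, the short transcript made up 34.3, 51.2, 70.0 and 84.4% of Pycard transcripts in PD-L1high libraries, 37.1, 60.9 and 50.0% in PD-L1low libraries and 28.4, 0, 0 and 29.0% in control libraries. All 7 libraries of IFNγ-treated islets were above all 4 control libraries. The mean share was 60.0 ± 21.9% in PD-L1high (SD, n = 4), 49.3 ± 11.9% in PD-L1low (SD, n = 3) and 14.3 ± 16.6% in control cells (SD, n = 4). The two-sided exact permutation p was 0.0286 for PD-L1high versus control and 0.0571 for PD-L1low versus control, each the smallest its design allows, and 0.514 for PD-L1high versus PD-L1low. After Benjamini-Hochberg adjustment over the 3 comparisons the exact permutation p values were 0.0857, 0.0857 and 0.514.

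This share was looked at after its values had been seen. Of 11922 tested genes whose listed length varied between libraries, 105 (0.881%) were shorter in all PD-L1high than in all control libraries, and 23 (0.193%) were shorter in all treated than in all control libraries, as Pycard was. Whether these shares exceed those of randomly labelled libraries was not tested, so they do not show that Pycard is unusual. The share is RSEM's estimate from 74 to 173 reads a library and no reads per transcript were analysed here. Gm45205, on the opposite strand, covers 485 bases of the long transcript and 145 bases of the short one, and averaged 1.16 CPM in PD-L1high, 2.33 in PD-L1low and 2.18 CPM in control cells. The libraries were made strand-specific, but whether RSEM used the strand is not given in the sources used here.

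**Figure D3:**
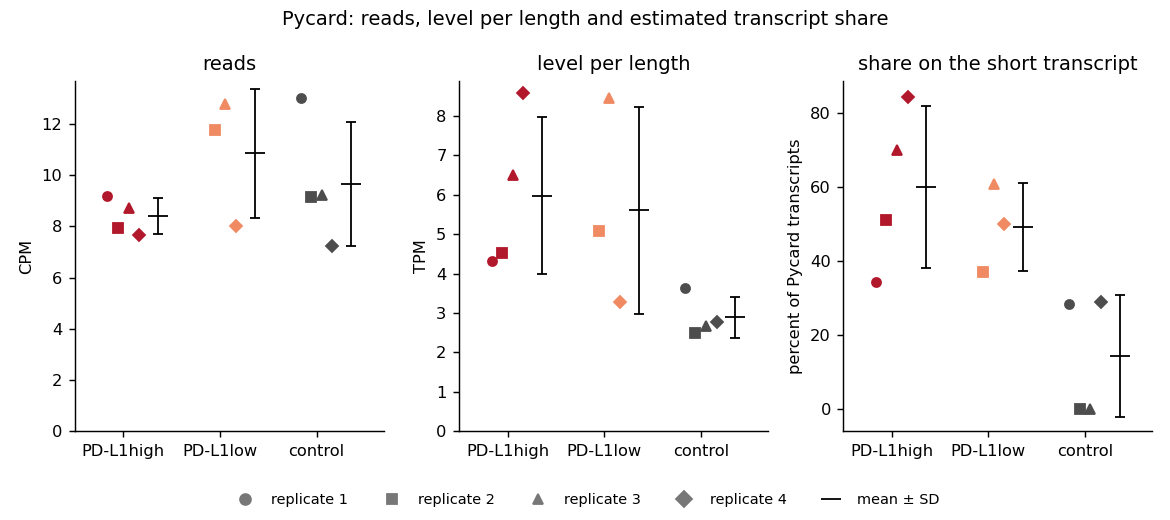
Pycard in each library of PD-L1high, PD-L1low and control beta cells: reads in CPM, level in TPM and the percent of its transcripts that RSEM's length assigns to the short transcript (vertical axes), with the mean ± SD beside the points. CPM overlap between all groups, whereas the share is 34.3% or more in each treated library and at most 29.0% in a control library.

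Set against all genes, 1 of the 5 tested members passed in PD-L1high versus control (0.991% of 16252 tested genes did), 0 in PD-L1low versus control (0.08% of genes) and 1 in PD-L1high versus PD-L1low (0.732% of genes), Il18bp both times. At an unadjusted p under 0.05 there were 2 members in PD-L1high versus control (7.65% of all tested genes), 1 in PD-L1low versus control (2.1% of genes) and 2 in PD-L1high versus PD-L1low (8.52% of genes) in edgeR, and DESeq2 with the replicate term called 0 of them in PD-L1low versus control. The CPM of the groups did not overlap for 3 tested members in PD-L1high versus control (Il18bp, Il18 and Casp1, where 4.29% of all tested genes did not overlap), for 1 in PD-L1low versus control (Il18, 2.71% of genes) and for 3 in PD-L1high versus PD-L1low (Il18bp, Il18 and Casp1, 8.01% of genes). The median log2 fold change of the 5 tested members was 0.78, 0.68 and 1.10 in these comparisons, beside -0.02, 0.00 and -0.00 over all tested genes. With 5 members, and Casp1 tested only for its PD-L1high level, these counts describe the members and nothing wider.

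**Figure D4:**
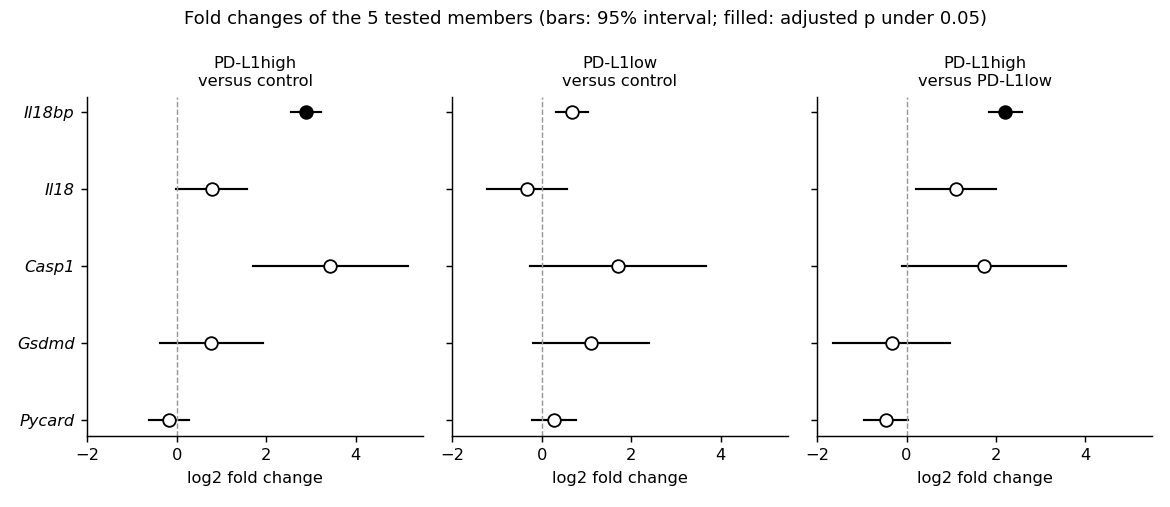
Log2 fold change (horizontal axis) of the 5 tested members (rows) with its 95% interval in the 3 comparisons, with filled points for an adjusted p under 0.05 in edgeR's quasi-likelihood test. Il18bp is filled at 2.89 and at 2.21, and the wide bars of Casp1 reflect 13 to 147 reads a group. Pycard lies at -0.18, 0.27 and -0.45 in PD-L1high versus control, PD-L1low versus control and PD-L1high versus PD-L1low.

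Ordered by mean TPM, the members of PD-L1high cells were Il18bp (127 ± 14.9), Il18 (7.48 ± 1.15), Pycard (5.98 ± 1.99), Gsdmd (3.13 ± 1.90), Casp1 (3.05 ± 1.37) and Casp4 (0.848 ± 1.46; SD, n = 4). Apart from Il18bp, neighbours in this order overlapped. PD-L1low cells had Il18bp first (22.7 ± 6.08), then Pycard (5.60 ± 2.62), Gsdmd (4.26 ± 0.537), Il18 (3.65 ± 0.338) and Casp1 (1.00 ± 0.864; SD, n = 3). In control cells the order was Il18bp (13.8 ± 2.31), Il18 (3.96 ± 0.870), Pycard (2.89 ± 0.509), Gsdmd (2.04 ± 1.31), Casp4 (0.425 ± 0.496) and Casp1 (0.238 ± 0.265; SD, n = 4). Il18bp was thus the most abundant member in every group, and the other neighbours in each order overlapped, except that Casp1 in PD-L1low cells was below Il18 in every library.

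The genes whose profile over the 11 libraries was most like that of Il18bp were B2m, Ube2l6 and Serping1. Likeness was the root mean square difference of log2(CPM + 0.5) profiles, each centred on its own mean, among 10721 tested genes with at least 5 CPM on average, and is a description without a test. The difference was 0.26 for B2m, the light chain of MHC class I, 0.31 for Ube2l6, the conjugating enzyme for ISG15, and 0.32 for Serping1, the inhibitor of complement C1. B2m averaged 924 CPM in PD-L1high, 166 in PD-L1low and 125 CPM in control cells, and its log2 fold changes were 2.92 in PD-L1high versus control, 0.58 in PD-L1low versus control and 2.35 in PD-L1high versus PD-L1low. Those of Il18bp were 2.89, 0.68 and 2.21.

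Around the members, 48 genes of 6 pathway lists were examined, of which 26 were tested and 11 had no read in any library. None of the 26 was called in any of the 3 comparisons, in edgeR's quasi-likelihood test or in DESeq2 with the replicate term, where 0.991%, 0.08% and 0.732% of all genes were called in edgeR, so that 0 of 26 is near the share of all genes. At an unadjusted p under 0.05 there were 2 in PD-L1high versus control (Naip2 and Il18r1), 0 in PD-L1low versus control and 2 in PD-L1high versus PD-L1low (Naip2 and Panx1) in edgeR, beside 7.65%, 2.1% and 8.52% of all genes. The median log2 fold change of the 26 genes was 0.13 in PD-L1high versus control, -0.03 in PD-L1low versus control and 0.12 in PD-L1high versus PD-L1low, beside -0.02, 0.00 and -0.00 over all genes.

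Among the sensors, Nlrp3 and Aim2 had no read in any of the 11 libraries, as had 6 of the 12 sensor genes in all, and 3 of 12 were tested with none called. The sensor with most reads was Naip2, which encodes a receptor of the NLRC4 inflammasome, at a mean of 20.3 TPM in PD-L1high, 15.6 in PD-L1low and 15.2 TPM in control cells. Nlrc4 itself had 13 reads in all PD-L1high libraries together, 23 in PD-L1low and 22 in control libraries, and was not tested. Of 7 regulators of the inflammasome, 6 were tested and none was called. Of the IL-1 family ligands and antagonists, 3 of 6 were tested with none called. Il1b, the precursor that caspase-1 cuts beside that of IL-18, had 4.70, 3.97, 3.14 and 4.67 CPM in PD-L1high libraries, 2.15, 2.59 and 3.23 in PD-L1low libraries and 5.12, 3.15, 1.75 and 2.24 CPM in control libraries. These groups overlapped, and the log2 fold change was 0.50 ± 0.38 (SE; adjusted p = 0.793) in PD-L1high versus control in edgeR.

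The receptor for IL-18 was found in part. Il18r1, its ligand-binding chain, had 2.64, 1.59, 1.65 and 5.82 CPM in PD-L1high libraries, 0.911, 1.70 and 2.46 in PD-L1low libraries and 0.543, 0.75, 1.33 and 0.448 CPM in control libraries. PD-L1high libraries were above all control libraries, yet the log2 fold change of 1.74 ± 0.62 (SE; 95% interval 0.42 to 3.07) had an adjusted p of 0.444 in edgeR. Of all tested genes, 4.29% had groups that did not overlap in PD-L1high versus control. Il18rap, the chain needed for signalling, had 1 read in all 11 libraries, in a control library. The IL-1 receptor Il1r1 was by contrast abundant, at a mean of 316 TPM in PD-L1high, 291 in PD-L1low and 283 TPM in control cells. Of 7 receptor chains 5 were tested, and of 7 genes of signalling below the receptor, such as Myd88, 6 were, with none called. The other gasdermins and Ninj1, which drives membrane rupture, gave 3 tested of 9 genes and no call.

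**Figure D5:**
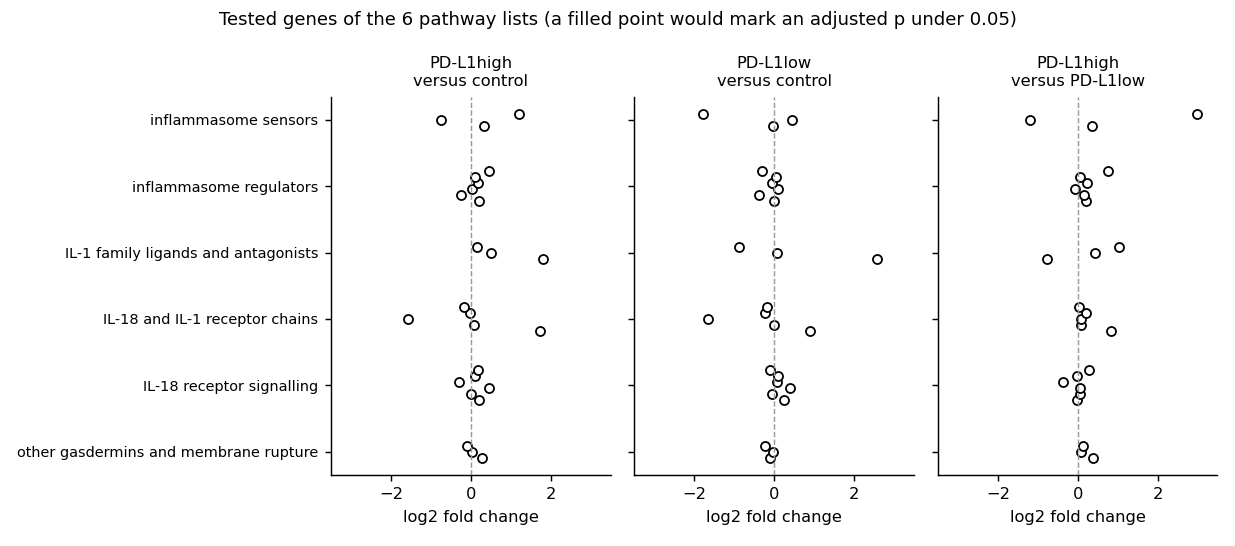
Log2 fold change (horizontal axis) of each tested gene of the 6 pathway lists (rows) in the 3 comparisons, where a filled point would mark an adjusted p under 0.05. All 26 genes are open. In PD-L1high versus control, IL-18 receptor signalling spans -0.30 to 0.45 and inflammasome regulators -0.24 to 0.45. Other gasdermins and membrane rupture span -0.08 to 0.27 there.

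Since macrophages express most members, markers of immune cells were read beside these values. Cells that carry CD45, TER119 or CD31 had been left out of the sort. Of 10 macrophage markers, 5 (Adgre1, Lyz2, C1qb, Itgam and Tyrobp) had no read in any library, and Ptprc, which encodes CD45, had 1 read in PD-L1high replicate 4 and 1 in control replicate 1. The summed level of the list was 9.79 to 12.4 CPM in PD-L1high, 7.51 to 10.9 in PD-L1low and 7.14 to 11.5 CPM in control libraries, most of it from C1qa and Cd68. Of 6 lymphocyte markers 5 had no read, and the sum did not exceed 1.03 CPM in PD-L1high, 0.828 in PD-L1low and 1.24 CPM in control libraries. Of 4 endothelial markers 1 had no read and the sums were at most 0.786, 0.248 and 0.15 CPM in the same groups. Markers of other endocrine cells differed between the gates: the 5 alpha cell markers summed to 561 to 1483 CPM in PD-L1high, 349 to 353 in PD-L1low and 323 to 1387 CPM in control libraries, the 3 delta cell markers to 11.4 to 39.4, 3.51 to 9.11 and 6.70 to 33.2 CPM, and the 2 PP cell markers to 233 to 562, 26.8 to 33.5 and 150 to 382 CPM. The 5 duct markers summed to 370 to 785 CPM in PD-L1high, 505 to 553 in PD-L1low and 401 to 545 CPM in control libraries. Acinar markers summed to at most 0.386 CPM and stellate markers to at most 1.05 CPM in any library. The part of these other cell types in the differences between PD-L1high and PD-L1low libraries was not tested.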

How the data were processed

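The NuGEN Ovation Solo kit (strand-specific, random primers, ribosomal RNA depleted) gave RNA-seq libraries of sorted mouse beta cells. The authors aligned paired reads to GRCm38.p6 and its GenCode M23 annotation using STAR 2.5.2b, and deposited RSEM's expected counts, TPM and transcript lengths in bases for each library. The RSEM version and any use of molecular identifiers are not given in the sources used here. The authors' comparisons were run in DESeq2 1.32.0 and included an undefined batch term.

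The deposited expected counts were rounded to integers (a change of at most 0.000388% of any library total) and tested with edgeR 4.0.16 (R 4.3.3, limma 3.58.1): filterByExpr by group with a count minimum of 10 (16252 genes), TMM, group and replicate number as terms over all 11 libraries, a robust quasi-likelihood fit (glmQLFTest), and Benjamini-Hochberg adjustment over all tested genes at 0.05. The common biological coefficient of variation was 0.258. Within groups, pairs of libraries differed beyond sampling noise, so each counted as 1 replicate. The procedure was tested on simulated data. Deposited TPM were used for levels per length, without an edgeR test; ratios and shares were compared by exact permutation tests (scipy 1.17.1). Promoter sequences and starts came from RefSeq, and positions and exons from GENCODE M21 on GRCm38, in which the members' exons were compared with those of other genes.

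The members and gene lists were chosen with earlier results of these data known. Named were all 7 members, every pathway gene called, Il18r1, Il18rap, Il1b, Nlrp3, Aim2, the comparators Cd274, Irf1 and Gbp2, and the 3 genes most like a called member; some listed genes are not reported here. Panx1, Naip2, Nlrc4, Il1r1, Numa1 and Gm45205 were added after their values were seen. Alternatives were other normalizations and filters, DESeq2 1.42.0, limma-voom, no replicate term, fits of only the groups compared, TPM recomputed from expected counts, and leaving out each library and replicate 1. Depth was 10422018 to 15810769 expected counts a library.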

Additional observations from a re-analysis of the deposited data

Results flagged for a closer look

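Casp4 stood apart in PD-L1high replicate 1, at 2.96 CPM, while the other PD-L1high libraries were at 0.238, 0.157 and 0 CPM. The gap to the nearest library was 0.919 of the group's range, above Dixon's 95% critical value for 4 samples. Chance marks about 1 in 20 groups of normally distributed values in this way, and 12 groups of 4 libraries were examined. Casp4, with few or no reads in most libraries, need not keep to that rate. Control replicate 1 was likewise the highest control library, at 1.32 CPM.

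Il18bp differed between the gated populations of the same treated islets. Its log2 fold change in PD-L1high versus PD-L1low was 2.21, with an adjusted p of 3.1e-06 in edgeR's quasi-likelihood test. Every PD-L1high library was above every PD-L1low library. The gate was set on PD-L1, so the populations were chosen by a response to IFNγ.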

How the results depend on the processing

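Il18bp passed the test in PD-L1high versus control and in PD-L1high versus PD-L1low under all 22 alternatives, with log2 fold changes of 2.76 to 3.08 and 2.08 to 2.40. In PD-L1high versus control, 161 genes were called, but 328 without the filter on low counts, 249 in DESeq2, 249 in limma-voom and 110 to 269 when a library or replicate 1 was left out (269 without control replicate 2). There 2 members were called, Casp1 being the second, without the filter, in DESeq2 with or without the replicate term, in limma-voom and in the fit of only the groups compared, and 1 to 2 when a library was left out. In PD-L1low versus control, 13 genes were called, but 20 by library size alone, 91 without the filter, 47 in DESeq2, 22 in DESeq2 without the replicate term, 23 in limma-voom, 33 in the fit of only the groups compared and 8 to 43 when a library was left out, and 1 member (Il18bp) was called without the filter and 0 to 1 when a library was left out. In PD-L1high versus PD-L1low, 119 genes were called, but 354 without the filter, 203 in DESeq2, 180 in limma-voom and 64 to 143 when a library was left out. The cause was not tested. Signs that were not settled were those of Gsdmd in PD-L1high versus PD-L1low (0.046 without the replicate block, 0.043 in DESeq2 without it, and -0.87 to 0.38 when a library was left out) and of Il1b in PD-L1low versus control (-0.20 without the block, -0.20 in DESeq2 without it, -0.0028 in limma-voom and -0.14 to 0.30 when a library was left out), none of them called. Cd274 in PD-L1low versus control (log2 fold change 0.94, adjusted p = 0.0394 in edgeR) had adjusted p values of 0.00384 to 0.307 when a library was left out. Mean TPM of the members recomputed from expected counts and effective lengths moved by no more than 1 SD in any group.

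The replicate number stood for the batch term of the study's methods. Deviations from group means correlated at -0.33 to 0.41 over 10 pairs of libraries with the same number and at -0.35 to 0.33 over 30 other pairs, so the numbers mark no clear pairing. Without the replicate block, 127, 12 and 88 genes were called in PD-L1high versus control, PD-L1low versus control and PD-L1high versus PD-L1low, and 1, 0 and 1 members.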
